A study of Mus musculus with 24 samples.

Results

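Of the 24 arrays of the study, 5 measured HC11 cells that carried a control siRNA (siNEG) and no knockdown, 2 of cells without differentiation-inducing agents (−LH) and 3 of cells given lactogenic hormones (+LH), and the response of these control cells to the hormones is described here. HC11 is an established line of mouse mammary epithelium (Balb/c) that makes casein when given lactogenic hormones. All 5 cultures were transfected before they were confluent with the Silencer Select Negative Control #1 siRNA at 10 nM, and each array was hybridised with the Cy3-labelled RNA of 1 culture. The lactogenic hormones were prolactin and hydrocortisone, added to a medium that holds insulin and no EGF, whereas the growth medium holds both insulin and EGF. The serum differs as well, with bovine calf serum in the growth medium and stripped horse serum in the hormone medium. The time in hormones of these cultures and the medium of the −LH cultures are not given in the sources used here. The addition of hormones, the withdrawal of EGF and the change of serum therefore cannot be told apart. All values come from 1 cell line in culture, and cultures without siRNA were not on the arrays used here.

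Lactogenic differentiation is the last step by which an alveolar cell of the pregnant gland becomes a milk-secreting cell. Prolactin binds its receptor, the kinase JAK2 then activates the transcription factor STAT5, and STAT5 together with the glucocorticoid receptor drives the casein genes. Glucocorticoids also close the tight junctions between secretory cells, and HC11 cells need to be confluent and to have been grown with EGF before they respond.

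The 5 arrays were close within each group. Over all probes Pearson's r was 0.99 between both −LH arrays and between 0.9795 and 0.9861 among the +LH arrays, against 0.9651 to 0.9739 for a −LH with a +LH array. Probes well above background numbered 28221 and 26989 on the −LH arrays and 24021, 28139 and 27057 on the +LH arrays, and no spot was saturated. +LH replicate 1 lay on the slide that held both −LH arrays, whereas +LH replicates 2 and 3 lay on another slide. The p-values are those of limma, adjusted by Benjamini-Hochberg over 55681 probes, and a gene is called changed at an adjusted p under 0.05. They measure the spread between 2 and 3 cultures. In whole cultures, fewer cells of a type and less RNA per cell cannot be told apart.

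About as many genes were called higher as lower in +LH cells. Of 20145 genes with a symbol, each read by its brightest probe, 6526 (32.4%) were called changed, 3387 (16.8%) higher and 3139 (15.6%) lower in +LH cells. A rise of at least 2-fold was called for 1293 genes and a fall of that size for 1297, while 421 rose and 477 fell by at least 4-fold and 72 rose and 26 fell by at least 16-fold. Among the called genes, 121 were well above background on every +LH array and on no −LH array. Another 127 were so on every −LH array and on no +LH array. Called genes well above background on fewer arrays are not in these counts. The median log2 fold change over all genes was 0.02. Over all probes, 11626 (20.9%) were called and 4812 (8.64%) were called with at least a 2-fold difference. Without −LH replicate 2 the count of 11626 was 7540, and without +LH replicate 2 it was 7472. Of probes for genomic regions without a gene accession 1481 of 16194 (9.15%) were called, and of probes with a gene symbol 8246 of 26582 (31%), a difference that was not tested.

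**Figure D1:**
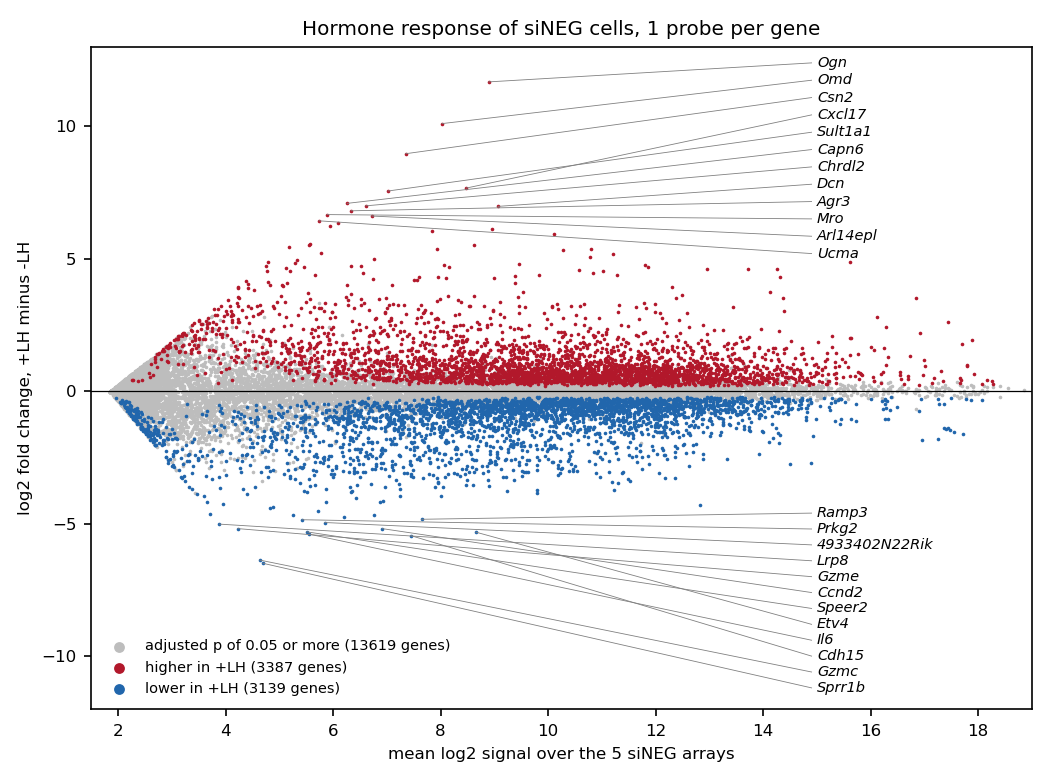
Mean log2 signal over the 5 siNEG arrays (x axis) against the log2 fold change of +LH over −LH cells (y axis), 1 point per gene. Red and blue points are the 3387 genes called higher and the 3139 called lower in +LH cells, grey points the rest. The labelled genes are those with the 12 largest fitted rises and the 12 largest fitted falls, many of them at background in 1 group, where the fitted value has no exact size.

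Milk protein genes rose in part. Of 15 genes in the list, 8 were called higher and 1 lower, with a median log2 fold change of 1.05, beside 16.8% higher and a median of 0.02 over all genes. Csn2, which encodes beta-casein, had log2 signals of 1.97 and 1.97 in the −LH arrays and of 10.98, 10.76 and 11.08 in the +LH arrays. It was not well above background on either −LH array, so its difference was at least 117-fold on the processed signal (adjusted p = 0.000502). Csn1s1, for alpha-S1-casein, had 2.14 and 1.95 against 6.55, 6.68 and 6.53, at least 5.72-fold higher (adjusted p = 0.000618). Its groups were far apart, and here too the −LH arrays gave no more than an upper limit. Pip, which encodes the prolactin-inducible protein, a secreted protein of milk and other fluids, was already bright before hormones, at 11.51 and 11.48, and reached 16.09, 16.03 and 16.17, 24.2-fold higher (log2 fold change 4.60, SE 0.064, adjusted p = 0.000528). Bounds hold for the processed signal only. With normexp background correction, which adds an offset and so narrows differences of dim probes, the log2 differences were 4.99 for Csn2 and 1.34 for Csn1s1, and with the authors' log2 values they were 6.78 and 2.59. Of 33 named genes called with a bound, 32 fell below it with normexp, and the fold of 63 of the 165 named genes that were called was smaller by over 1.5 times. For most of these genes the normexp value is given below, with the gene or as a range over several genes. A gene without one may also have moved.

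Other secreted proteins rose less. Spp1 (osteopontin) rose 4.07-fold, Ltf (lactoferrin, an iron-binding defence protein) 3.94-fold and Mfge8, a protein of the milk fat globule membrane, 3.10-fold, and in each the 3 +LH arrays lay above both −LH arrays. For Csn1s2b the called probe rose by 1.05 on the log2 scale, a second probe of the gene had a difference of -1.04 that was not called, and the call was lost with normexp background correction, with the authors' log2 values and in fits with more arrays. Csn1s2a was called higher but was well above background on no array, and the call was lost with slide as a fixed term, a fit that compares the groups within the slide holding both. Muc1, the only member called lower, was well above background on 1 −LH array and on no +LH array. The milk genes Wap and Glycam1 and the casein gene Csn3, as well, were well above background on none of the 5 arrays. For Lalba (alpha-lactalbumin), which was measured on all 5 arrays, the log2 signals of 6.12 and 6.31 against 6.43, 6.20 and 5.599 overlapped (adjusted p = 0.835), and neither Lpo nor Cel was called.

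**Figure D2:**
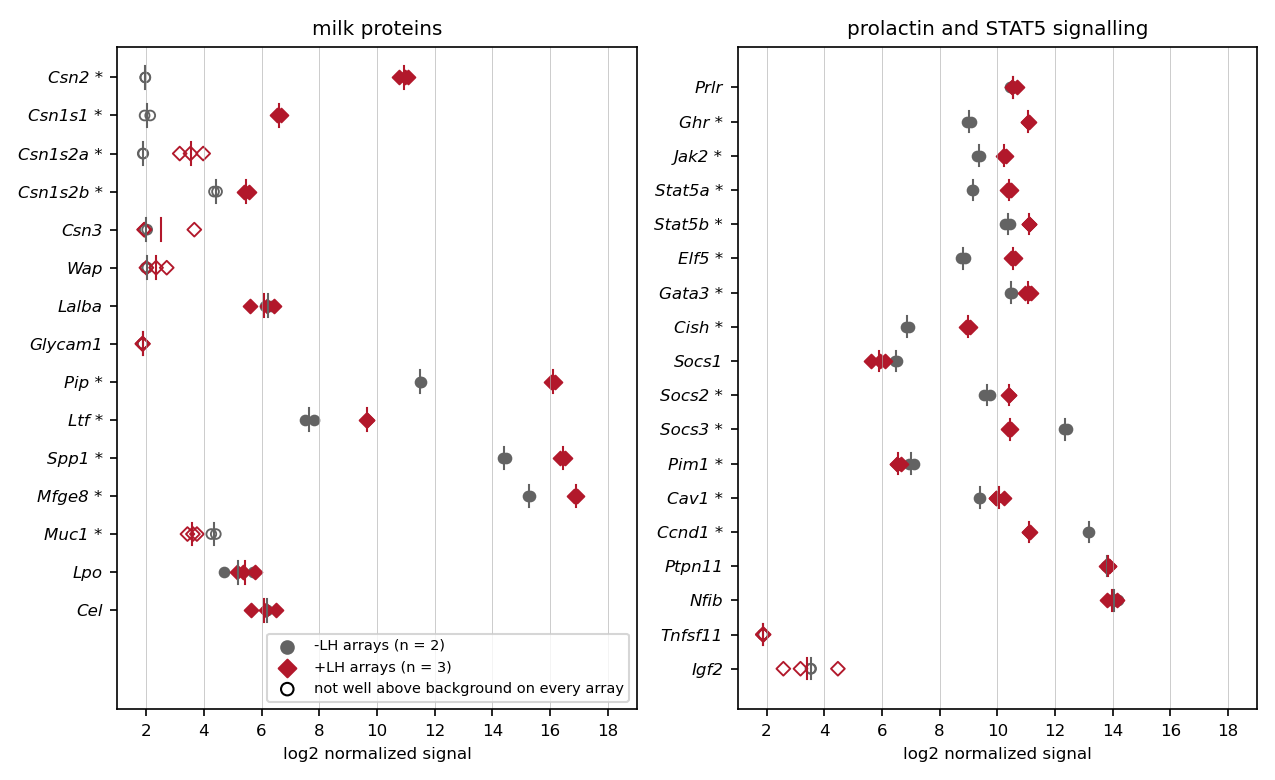
Log2 normalized signal (x axis) of the 15 milk protein genes (left) and the 18 genes of prolactin and STAT5 signalling (right) on the 2 −LH arrays (grey circles) and the 3 +LH arrays (red diamonds), with a short line at each group's mean. Open symbols mark a group in which the probe was not well above background on every array, and a star marks a gene called changed. Csn2, Csn1s1 and Pip stand furthest apart, and Wap, Csn3 and Glycam1 have open symbols in both groups.

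STAT5 binds a palindrome in the promoters of casein genes, and the RefSeq promoters of 4 genes that rose are shown because each holds this motif. Each runs from 250 bases before to 50 bases after the annotated gene start in build GRCm38.p6, 5′ to 3′ on the strand of the gene, and the capitals mark TTCNNNGAA, which reads the same on both strands. The windows are chr5:87699376-87699675 on the minus strand for Csn2, chr5:87665958-87666257 on the plus strand for Csn1s1, chr6:41847299-41847598 on the plus strand for Pip and chr9:107296409-107296708 on the plus strand for Cish, a STAT5 target described with the prolactin genes.
Csn2: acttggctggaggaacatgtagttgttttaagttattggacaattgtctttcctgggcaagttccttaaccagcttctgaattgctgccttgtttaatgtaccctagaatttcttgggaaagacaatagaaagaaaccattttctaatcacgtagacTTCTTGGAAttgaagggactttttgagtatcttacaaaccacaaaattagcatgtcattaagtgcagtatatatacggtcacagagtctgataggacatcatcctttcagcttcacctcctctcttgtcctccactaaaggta
Csn1s1: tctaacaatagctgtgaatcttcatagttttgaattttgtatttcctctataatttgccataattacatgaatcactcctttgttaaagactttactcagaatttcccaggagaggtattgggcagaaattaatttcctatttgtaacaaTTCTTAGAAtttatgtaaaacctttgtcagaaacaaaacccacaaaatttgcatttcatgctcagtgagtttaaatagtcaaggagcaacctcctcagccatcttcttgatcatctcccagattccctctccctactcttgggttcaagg
Pip: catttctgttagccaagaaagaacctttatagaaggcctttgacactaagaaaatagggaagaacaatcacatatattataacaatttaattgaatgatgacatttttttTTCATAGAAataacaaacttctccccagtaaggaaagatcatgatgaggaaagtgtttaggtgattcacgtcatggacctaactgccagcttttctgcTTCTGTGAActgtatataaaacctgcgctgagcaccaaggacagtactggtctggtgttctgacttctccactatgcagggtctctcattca
Cish: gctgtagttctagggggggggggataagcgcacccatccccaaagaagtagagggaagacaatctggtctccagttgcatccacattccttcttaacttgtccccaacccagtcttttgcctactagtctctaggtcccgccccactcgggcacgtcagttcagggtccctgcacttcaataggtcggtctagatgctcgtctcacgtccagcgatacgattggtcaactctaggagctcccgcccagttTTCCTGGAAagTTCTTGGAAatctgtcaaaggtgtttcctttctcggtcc

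Counted from the gene start, the motif lay at -93 to -85 in Csn2 and at -100 to -92 in Csn1s1. Pip held it at -140 to -132 and at -42 to -34, and Cish held it at 1 to 9 and at 12 to 20, just after the start. Among promoters of this length, 2582 of 27025 (9.55%) held TTCNNNGAA. It was found in 5 of the 13 milk protein promoters given (Csn1s1, Csn1s2a, Csn2, Glycam1 and Pip), in 3 of 15 of the prolactin list (Prlr, Cish and Socs3) and in 4 of 19 of the glucocorticoid list (Tsc22d3, Per1, Sgk1 and Klf9). Glycam1 and Prlr hold the motif and were not called changed. The full glucocorticoid receptor palindrome, AGAACA and TGTTCT with 3 free bases between them, was in 3 of the 27025 promoters, 1 of which was that of Sgk1. The letters alone do not show that a factor bound there.

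Prolactin signalling genes changed on both sides of the pathway. Of the 18 genes in the list, 9 were called higher and 3 lower, with a median log2 fold change of 0.31. The receptor gene Prlr stayed within the spread of the replicates, at 10.61 and 10.44 in −LH and 10.51, 10.67 and 10.49 in +LH arrays (log2 fold change 0.03, SE 0.094). The related growth hormone receptor gene Ghr rose 4.13-fold, from 9.10 and 8.95 to 11.07, 11.05 and 11.09. Downstream of the receptors, Jak2 rose 1.85-fold, Stat5a 2.38-fold and Stat5b 1.68-fold. Elf5, a transcription factor that alveolar cells need in order to form, rose 3.33-fold, and Gata3, a factor of the luminal lineage, 1.51-fold. The rise of Gata3 was not called with slide as a fixed term, with 75th percentile scaling or without either −LH array or +LH replicate 2.

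The feedback inhibitors of the pathway did not move together. Cish, a direct target of STAT5, had log2 signals of 6.93 and 6.82 against 8.996, 8.91 and 9.05 and rose 4.33-fold (log2 fold change 2.11, SE 0.073, adjusted p = 0.000944). Socs2 was called higher by 1.69-fold, and this call was lost with slide as a fixed term. Socs3, which is also driven by STAT3 and cytokines, fell 3.82-fold, from 12.41 and 12.31 to 10.41, 10.48 and 10.39. Socs1 was lower by 0.61 without being called (adjusted p = 0.0826). Ccnd1 (cyclin D1), listed as a prolactin target in the gland and also a target of growth factors, fell 4.14-fold, from 13.17 and 13.15 to 11.11, 11.12 and 11.11. Cav1, an inhibitor of JAK2 in mammary cells, was called higher by 0.65 and Pim1 lower by 0.45, and both calls were lost with 75th percentile scaling and without either −LH array, that of Pim1 also with slide as a fixed term. Tnfsf11 (RANKL) and Igf2 were well above background on no array.

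Glucocorticoid-responsive genes were mostly higher. Of 25 genes, 14 were called higher and 3 lower, with a median of 0.60. Tsc22d3 (GILZ), an anti-inflammatory mediator of glucocorticoids, went from 9.99 and 9.90 to 13.91, 13.97 and 13.75, a rise of 15.3-fold (SE 0.090 on the log2 scale, adjusted p = 0.000658). Fkbp5, a chaperone that restrains the receptor, rose 7.97-fold, Zbtb16 6.28-fold, the clock gene Per1 5.61-fold and Glul (glutamine synthetase) 4.81-fold. Nfkbia, the inhibitor of NF-kappaB, rose 3.15-fold and Cebpd 3.08-fold. Klf9, Anxa1, Dusp1 and Irs2 rose by between 2.02-fold and 2.44-fold, and the glucocorticoid receptor gene Nr3c1 was called higher by 0.59. A second probe of Nr3c1 had a log2 difference of -0.21 that was not called, and the mean of its probes was not called either. With normexp, Zbtb16 differed by 1.40 and Glul by 1.36 on the log2 scale.

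A few members moved against the rest. Cdkn1c (p57), a cell cycle inhibitor, fell 16.3-fold, from 8.72 and 8.96 to 4.97, 4.52 and 4.95, and was well above background on 2 of the 3 +LH arrays, with a normexp log2 difference of -2.54. Angptl4, an inhibitor of lipoprotein lipase, fell 3.01-fold, and Sgk1, a kinase that raises sodium uptake, was called lower by 0.65. The metallothionein gene Mt1 was called higher by 0.44, but 75th percentile scaling turned this to -0.06 (adjusted p = 0.733), and Mt2 was not called. Hsd11b1, which regenerates active glucocorticoid, was at 11.20 and 11.13 against 11.27, 11.25 and 11.24 and was not called, and Hsd11b2 was well above background on no array. The calls of Nr3c1, Sgk1 and Klf9 were lost with slide as a fixed term and without either −LH array, and that of Irs2 without either −LH array or +LH replicate 2.

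Tight junction and adhesion genes moved in 1 direction. Of 15 genes, 12 were called higher and 0 lower, and 3 (Tjp1 and Cdh1 among them) were not called. All 15 differences were positive, and at an unadjusted p under 0.05 14 genes were higher and 0 lower. The median log2 fold change was 1.15. Cldn8, a sealing claudin, was not well above background in −LH arrays (2.59 and 1.88) and stood at 7.73, 7.82 and 7.80 in +LH arrays, at least 13.1-fold higher (normexp log2 difference 2.15). Tjp3 (ZO-3), a scaffold that ties claudins to the cytoskeleton, rose 6.84-fold, from 8.66 and 8.59 to 11.42, 11.40 and 11.36. Cldn4 rose 4.13-fold, Ocln (occludin) 2.94-fold (0.90 on the log2 scale with normexp) and Cgn (cingulin) 2.78-fold, in each with all +LH arrays above both −LH arrays. The call of Cldn4 was lost without −LH replicate 2, and without that array 7 genes of the list were called higher.

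Transport genes were split. Of 22 genes, 10 were called higher and 4 lower (median 0.39). Atp1b1, the beta subunit of the sodium pump, had 10.24 and 10.13 against 14.85, 14.94 and 14.63 and rose 24.6-fold (SE 0.115, adjusted p = 0.000724). Scnn1a, a subunit of the epithelial sodium channel, rose 5.64-fold, while the other subunit genes Scnn1b and Scnn1g were well above background on no array. The chloride channel gene Cftr was at least 2.16-fold higher (normexp log2 difference 0.49). Its call was lost with the authors' log2 values and with slide as a fixed term. Aqp3, a water and glycerol channel, fell 13.04-fold, from 8.05 and 8.11 to 3.90, 4.30 and 4.93, and by 2.04 on the log2 scale with normexp. Without −LH replicate 1 or −LH replicate 2, 6 transport genes were called higher.

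Keratins of the basal layer fell. Of 17 basal and squamous markers, 9 were called lower and 2 higher, with a median of -1.07. Krt5, the keratin that defines basal cells, had 16.51 and 16.54 against 13.72, 13.81 and 13.88 and fell 6.60-fold. Krt17, a keratin of basal and stressed epithelium, fell 19.9-fold, from 15.39 and 15.45 to 11.01, 11.02 and 11.30. Krt6b fell 13.2-fold (-3.09 on the log2 scale over the mean of its probes) and Krt16 6.44-fold, both keratins of proliferating epithelium. Krt15, a further basal keratin, went the other way, from 12.48 and 12.65 to 15.64, 15.69 and 15.47, a rise of 8.21-fold. Myh11, Ivl and Lor, markers of myoepithelial and cornified cells, were well above background on no array, and the summed linear signal of the 17 markers was 220397 and 226578 in −LH and 97849, 103034 and 103405 in +LH arrays.

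Luminal markers were mixed. Of 15, 7 were called higher and 4 lower (median -0.07). Kit, the receptor that marks luminal progenitors, rose 26.9-fold, from 9.06 and 8.85 to 13.75, 13.80 and 13.56 (SE 0.114, adjusted p = 0.000694). Krt23 rose 7.56-fold (normexp log2 difference 2.32), and the simple-epithelial keratins Krt7, Krt8 and Krt18 were higher by 0.67, 0.86 and 1.40 on the log2 scale. Areg (amphiregulin), a ligand of the EGF receptor, was at least 17.5-fold lower (normexp log2 difference -2.45), and Ly6a (Sca-1) fell 5.03-fold. The hormone receptor genes Esr1 and Pgr, Foxa1, Krt19 and Aldh1a3 were well above background on no array. The summed signal of the 15 luminal markers was 45592 and 48519 against 97888, 101836 and 96185. With slide as a fixed term 4 luminal genes were called higher and 2 lower.

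**Figure D3:**
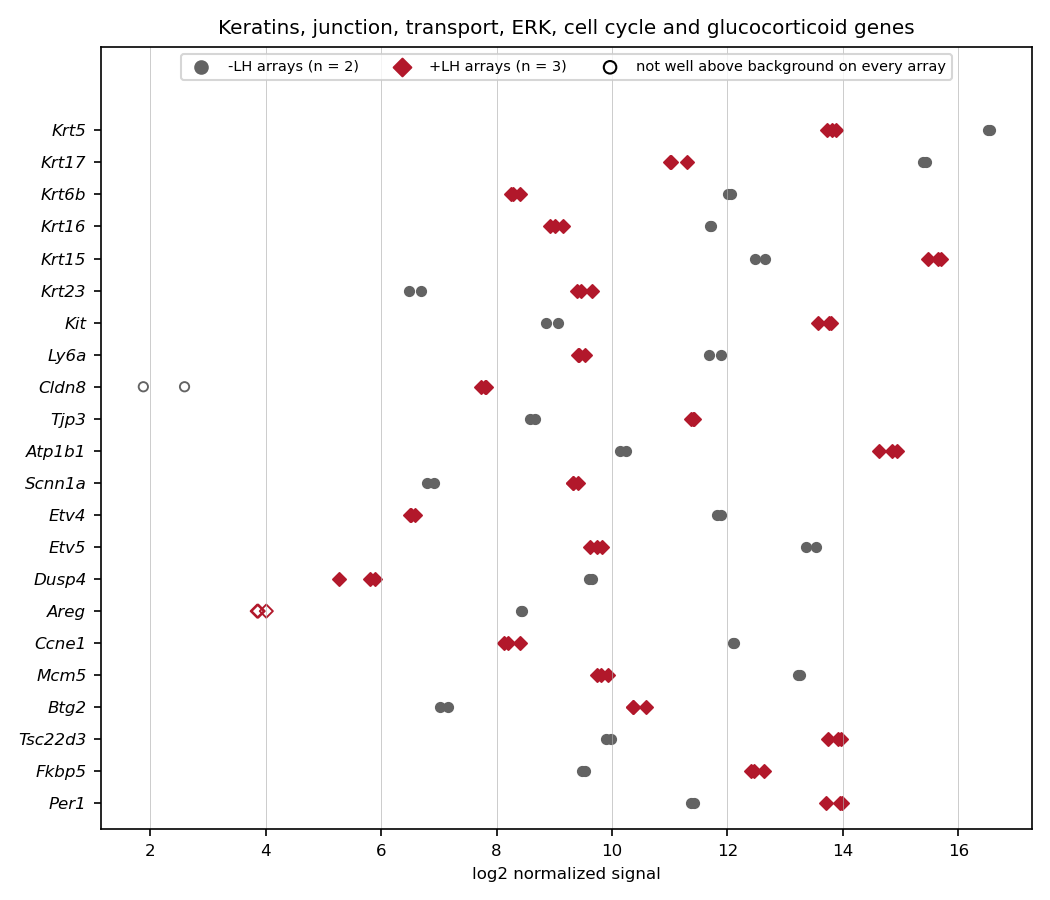
Log2 normalized signal (x axis) of keratin, luminal, junction, transport, EGF and ERK, cell cycle and glucocorticoid genes (rows) on the 2 −LH arrays (grey circles) and the 3 +LH arrays (red diamonds). Open symbols mark a group in which the probe was not well above background on every array. The groups do not overlap for any gene shown, with Krt15 above and Krt5, Krt17, Krt6b and Krt16 below their −LH values.

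Genes of the EGF and ERK list, which holds receptors and ligands as well as targets, were lower more often than higher. Of 26 genes, 15 were called lower and 3 higher (median -0.79). The transcription factor gene Etv4, which ERK induces, fell 39.9-fold, from 11.81 and 11.88 to 6.497, 6.58 and 6.51, and its relative Etv5 fell 13.2-fold. Dusp4, a phosphatase that limits ERK, fell 15.6-fold, and Dusp6 was lower by 2.75 on the log2 scale. Fosl1, a partner in AP-1, was at least 2.08-fold lower. The normexp log2 differences were -4.56 for Etv4, -2.92 for Dusp4 and -0.67 for Fosl1. Among the ligands, Areg, Ereg, Hbegf and Tgfa were called lower and Btc higher. Egfr itself was higher by 0.10 without being called, and Erbb2 was called higher by 0.34. The other gene called higher was Phlda1, with a difference of 1.39. Several feedback genes moved little or were not called. Spry1 (-0.015), Dusp7 (-0.03), Spry4 (-0.365) and Dusp5 (-0.745) were not called, and Spry2 (-0.47) and Egr1 (-0.42) were called lower.

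Cell cycle genes fell almost as a block. Of 28, 26 were called lower and 0 higher, with a median of -2.52, and Aurkb and Ccne2, the 2 that were not called, were well above background on no array. At an unadjusted p under 0.05 26 were lower and 0 higher. Ccne1 (cyclin E1), which drives entry into S phase, fell 14.5-fold, from 12.11 and 12.09 to 8.40, 8.13 and 8.19. The replication genes Mcm5, Tk1 and Rrm2 fell 10.7-fold, 10.5-fold and 9.70-fold, and Cdc6, which loads the replicative helicase, fell 11.6-fold, or by 1.75 on the log2 scale with normexp. Of the mitotic genes, Top2a, Plk1 and Mki67 were lower by 2.91, 2.67 and 2.29 on the log2 scale. Under every alternative other than the replicate number as a block, no change of more than 1.5 times was seen in the number of these genes called.

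Among 11 cell cycle inhibitors, 5 were called higher and 2 lower (median 0.45). Btg2, an antiproliferative gene, rose 10.3-fold, from 7.01 and 7.15 to 10.37, 10.36 and 10.60. Ccng2 rose 2.39-fold, Btg1 1.74-fold and Cdkn2b 1.70-fold, whereas Gadd45a fell 2.38-fold. The normexp log2 differences were 2.77 for Btg2 and -0.62 for Gadd45a. Cdkn1a (p21) had a difference of -0.38 that was not called. With 75th percentile scaling, under which the median of all probes moved from 0.012 to 0.185, 3 inhibitors were called higher and Btg1 was no longer called.

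**Figure D4:**
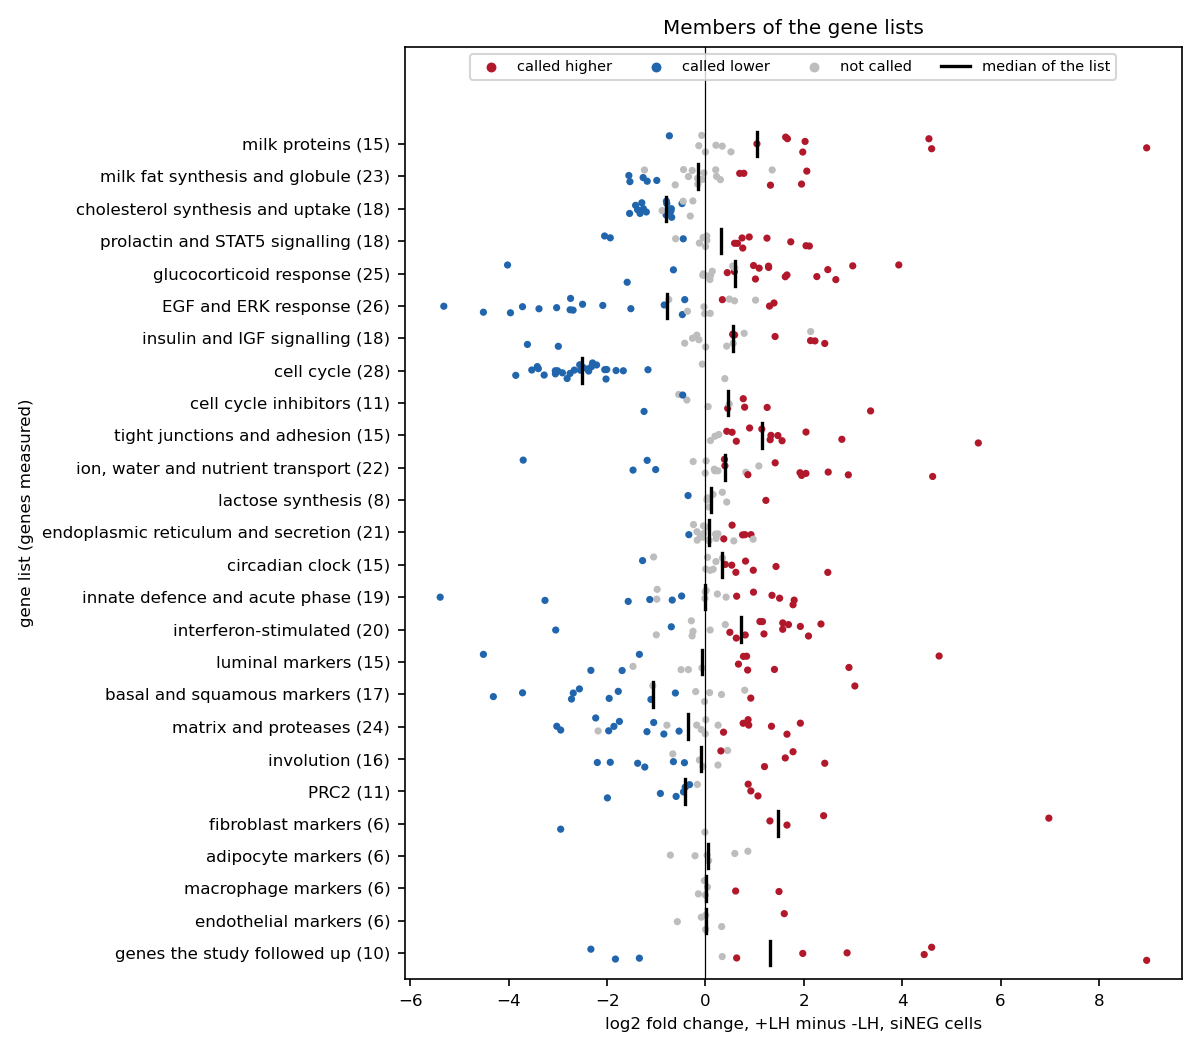
Log2 fold change of +LH over −LH cells (x axis) for the members of 26 gene lists (rows, with the number of genes measured). Red and blue points were called higher and lower, grey points were not called, and the black line is the median of the list. The cell cycle list lies furthest to the left, with a median of -2.52, and the medians of the tight junction genes and milk proteins lie to the right of 0.

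Genes of sterol synthesis fell, and those of milk fat did not move 1 way. Of 18 genes for cholesterol synthesis and uptake, 14 were called lower and 0 higher, with a median of -0.80, and at an unadjusted p under 0.05 17 were lower and 0 higher. Idi1 fell 2.91-fold, Mvd 2.603-fold and Cyp51 2.51-fold, and Srebf2, which drives the pathway, was called lower by 0.79. With slide as a fixed term 9 were called lower. Of 23 genes for milk fat synthesis and the fat globule, 5 were called higher and 5 lower (median -0.16). The share called in this list was near that of bright genes, 6224 of 12732. Xdh (xanthine oxidoreductase), a protein of the milk fat globule, rose 4.17-fold, from 6.79 and 6.501 to 8.77, 8.74 and 8.60. Thrsp (Spot14), a regulator of lipogenesis, was at least 3.67-fold higher (normexp log2 difference 0.68), and Lpin1 rose 2.5-fold. Scd1, a desaturase, fell 2.94-fold. Fasn and Acaca, the core enzymes of fatty acid synthesis, had differences of -0.34 and -0.16 that were not called, and Olah, called lower, was well above background on no array.

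Of the genes for lactose and the secretory pathway 2 of 8 and 6 of 21 were called. All members of both lists were bright, meaning that their probes stood clear of background throughout the −LH or the +LH arrays. Of 12732 bright genes 6224 were called, a larger share than in either list. The 32.4% called of all genes includes dim genes, so for lists of mostly bright genes the bright share is the closer comparison. These differences in share were not tested, and nothing particular is read from them. Of 8 genes for lactose synthesis, 1 (Hk1, hexokinase 1, 2.34-fold higher) was called higher and 1 (Pgm2, by 0.35) lower, a call lost under most alternatives, with a median of 0.11, and B4galt1, which pairs with alpha-lactalbumin to form lactose synthase, was not called. Of 21 genes of the endoplasmic reticulum and secretion, 5 were called higher and 1 lower (median 0.07), led by Xbp1, a factor that expands the secretory apparatus, which rose 1.90-fold from 12.98 and 12.86 to 13.84, 13.87 and 13.83. Atf6 and Ddit3 were called higher by 1.75-fold and 1.69-fold. The chaperone genes Hspa5, Hsp90b1 and Calr were not called. Without any 1 of −LH replicate 1, −LH replicate 2 and +LH replicate 2, 2 genes of this list were called higher, without Atf6 among them.

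Insulin and IGF signalling genes were called higher in 7 and lower in 2 of 18 cases (median 0.56), in cells that had insulin in all media named. The IGF-binding proteins diverged: Igfbp5, which rises in involuting gland, rose 5.37-fold from 14.85 and 14.80 to 17.14, 17.45 and 17.17, while Igfbp3 fell 12.3-fold (normexp log2 difference -2.98) and Igfbp2 7.95-fold. Pik3r1, the regulatory subunit of PI3 kinase, rose 4.68-fold and Pik3ip1, an inhibitor of that kinase, 4.40-fold. Of 15 circadian clock genes, 7 were called higher and 1 lower (median 0.35). The shares called in the insulin and IGF list and in the clock list were near that of bright genes, 6224 of 12732. Nothing particular is read from them. Besides Per1, Tef rose 2.70-fold, Bhlhe41 1.96-fold and Bhlhe40 1.76-fold, whereas Hlf fell 2.43-fold and the core clock genes Arntl and Clock were not called. With slide as a fixed term the calls of Bhlhe40, Bhlhe41 and Hlf were lost, and without −LH replicate 1 or −LH replicate 2, 3 clock genes were called higher.

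Innate defence genes were split evenly, with 6 of 19 called higher and 6 lower (median -0.00). Lcn2 (lipocalin 2), which starves bacteria of iron, rose 3.49-fold, from 12.50 and 11.998 to 14.08, 13.95 and 14.12, while Hp (haptoglobin) was called higher by 3.44-fold. The call of Hp was lost with slide as a fixed term, with the methods' t-test and without −LH replicate 2 or any 1 +LH array. Il6 was at least 23.7-fold lower, from 8.84 and 8.74 to 3.95, 2.80 and 3.44, and the neutrophil chemokines Cxcl5 and Cxcl1 fell 9.59-fold and 2.97-fold. With normexp the log2 differences of Il6 and Cxcl5 were -2.73 and -2.49. With slide as a fixed term 2 of these genes were called higher, and without +LH replicate 2 there were 3. Of 20 interferon-stimulated genes, 12 were called higher and 2 lower, with a median of 0.72. Usp18, an inhibitor of interferon signalling, rose 5.09-fold, from 7.87 and 8.04 to 10.68, 10.06 and 10.17, and Irf7, a master factor of the response, rose 4.27-fold. Rtp4 and Ifit3 rose 3.81-fold and 3.22-fold, while Oasl1 fell 8.25-fold and Isg15, a widely used marker, was higher by 0.10 without being called. The normexp log2 differences were 1.51 for Irf7 and -1.99 for Oasl1. Without −LH replicate 2, 6 interferon-stimulated genes were called higher.

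Matrix genes moved both ways. Of 24 matrix and protease genes, 7 were called higher and 10 lower (median -0.36). Sparc, a matricellular protein, rose 3.81-fold, from 16.73 and 16.70 to 18.68, 18.58 and 18.68. Replicates 1 and 3 of +LH hold the same value, which quantile normalization gives to probes of equal rank. A second probe of Sparc was called higher by 3.06 on the log2 scale. Fn1 (fibronectin) fell 3.91-fold, Col1a1 7.69-fold and Timp1, an inhibitor of metalloproteases, 8.12-fold, and Tnc was at least 3.71-fold lower. The normexp log2 differences were -2.08 for Col1a1 and -0.84 for Tnc. Of 16 involution genes, 5 were called higher and 6 lower (median -0.09). Ctsd (cathepsin D) rose 3.44-fold, and Lif, which starts involution through STAT3, was at least 1.81-fold lower, a call lost with the authors' log2 values (normexp log2 difference -0.36).

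Markers of other cell types differed by type. Of 6 fibroblast markers, 4 were called higher and 1 lower, with a median of 1.48, and their summed linear signal was 883 and 939 in −LH and 4862, 5186 and 5339 in +LH arrays. Dcn (decorin), a proteoglycan that binds collagen, rose 126-fold, from 5.06 and 4.70 to 11.74, 11.88 and 11.97, and by 5.12 on the log2 scale with normexp. Col3a1 rose 3.15-fold, from 8.13 and 8.57 to 10.06, 10.03 and 9.92, and Pdgfra, a growth factor receptor, 2.48-fold. Lum was at least 1.46-fold higher and was well above background on 1 of the 3 +LH arrays (normexp log2 difference 0.40). Col1a1 fell, and Thy1 was well above background on no array. Whether fibroblast-like cells had a part in these values was not tested. None of 6 adipocyte markers was called (at an unadjusted p under 0.05, 1 was higher and 0 lower, and the methods' t-test called 0), and Adipoq, Cidec, Lep, Retn and Cfd were well above background on no array, with sums of 46 and 44 against 31, 44 and 383. Of 6 macrophage markers 2 were called higher (Itgam by 0.61 and Fcgr1, which was not above background, both calls lost with slide as a fixed term), Ptprc, Lyz2 and Fcgr1 were well above background on no array, and the sums were 2809 and 2709 against 3582, 3943 and 4368. Of 6 endothelial markers 1 (Vwf, whose call was lost without any 1 array) was called higher, Cdh5, Tek and Emcn were well above background on no array, and the sums were 1661 and 1951 against 1604, 1459 and 2128.

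Most of the 12 largest fitted rises were against signals at background, so they have no order among themselves or against measured rises. Ogn (osteoglycin) and Omd (osteomodulin), proteoglycans of the matrix, went from 1.89 and 1.89 to 13.51, 13.62 and 13.58 and from 1.94 and 1.98 to 11.98, 12.16 and 12.07, at least 723-fold and at least 256-fold higher. Both genes are neighbours on chromosome 13. Their next neighbours Aspn and Ecm2, of the same family, were not called, and were well above background on 1 and on none of the arrays. Cxcl17, a mucosal chemokine, was at least 173-fold higher, from 4.15 and 3.60 to 11.53, 11.56 and 11.55. Sult1a1, a sulfotransferase, was at least 63.0-fold higher, Chrdl2, an antagonist of BMP, at least 40.5-fold, Arl14epl at least 39.4-fold and Capn6 at least 32.7-fold. Agr3, a disulfide isomerase of secretory cells, was at least 31.8-fold, Mro at least 22.4-fold and Ucma at least 18.9-fold higher. With Csn2 and Dcn these make up the 12, of which 11 were well above background on no −LH array, and their normexp log2 differences ran from 2.58 (Ucma) to 7.56 (Ogn). A second probe of Mro was called higher by only 1.33 on the log2 scale, so the bound of Mro holds for its brightest probe alone. Among genes well above background on all 5 arrays, and so measured in both groups, the largest log2 differences after Dcn were 6.12 for Penk (proenkephalin), 5.95 for Ptgds (a prostaglandin D synthase), 5.53 for Armc2, 5.39 for Pdzk1ip1 and 5.38 for Cmtm5, all named after their values were seen.

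The 12 largest fitted falls had the same limit where +LH signals were at background. Sprr1b, a protein of the cornified envelope, went from 8.63 and 8.56 to 2.20, 2.02 and 2.08, at least 20.7-fold lower. Gzmc and Gzme, granzymes of one gene cluster, were at least 18.9-fold and 8.68-fold lower, and Speer2 at least 22.2-fold. These 3 belong to families of near-identical genes, so which member the probe read is uncertain. A second probe of Speer2 had a log2 difference of -0.48 that was not called. Cdh15, a cadherin, fell 43.8-fold, from 10.66 and 10.78 to 5.49, 5.50 and 4.81. Ccnd2 (cyclin D2) fell 36.4-fold and Ramp3, a partner of receptors for adrenomedullin, 28.5-fold. Lrp8, a lipoprotein receptor, was at least 6.39-fold, Prkg2 at least 17.3-fold and 4933402N22Rik at least 22.5-fold lower. Il6 and Etv4, given with their lists, complete the 12, and the normexp log2 differences of the 12 ran from -1.50 (Lrp8) to -4.56 (Etv4). Among genes well above background on all 5 arrays the largest falls were those of Cdh15, Etv4 and Ramp3, followed by -4.66 for Serpinf1 and -4.31 for Krt17, the former named after its values were seen.

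Genes that the study itself followed up and the complex it studied were read as well. The probe named for PINC, the noncoding RNA that the study knocked down, had 7.41 and 7.48 in −LH and 4.96, 4.93 and 4.72 in +LH arrays and fell 5.95-fold (SE 0.099 on the log2 scale, adjusted p = 0.00108), with 2 of 3 +LH arrays well above background and a normexp log2 difference of -1.32. Of 10 followed-up genes, 6 were called higher and 3 lower (median 1.31), and since the study picked part of them on these samples their count is not independent evidence. Edn1 (endothelin 1), a vasoactive peptide, went from 3.88 and 3.89 to 8.32, 8.31 and 8.37, at least 19.2-fold higher, and its receptor gene Ednra rose 7.36-fold. With normexp both differed less, by 2.29 and 2.24 on the log2 scale. Itgb3 (integrin beta 3) fell 3.56-fold and Wnt4, a ligand that acts downstream of progesterone, 2.54-fold, the latter not called with slide as a fixed term. Chil1 was called higher by 0.64, a call lost with slide as a fixed term, with the authors' log2 values, with the methods' t-test and without any 1 +LH array or −LH replicate 2.

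Of 11 genes of PRC2, the complex that methylates lysine 27 of histone H3, 3 were called higher and 6 lower (median -0.41). The catalytic subunit genes moved apart: Ezh2 fell 1.89-fold, from 11.41 and 11.38 to 10.49, 10.52 and 10.43, and Ezh1 rose 1.90-fold, from 11.99 and 11.89 to 12.86, 12.81 and 12.92. The core subunits Eed and Rbbp7 were called lower by 0.41 and 0.45 (both calls lost without either −LH array), whereas Suz12 (-0.41, adjusted p = 0.0578) and Rbbp4 (-0.16) were not called. A second probe of Rbbp4 was called higher, by 0.38. Mtf2, called lower (-0.32), had a second probe at 0.00 that was not called. Of the accessory genes, Jarid2 and Phf1 rose 2.10-fold and 1.83-fold, and Phf19 fell 3.98-fold, from 7.72 and 7.77 to 6.06, 5.88 and 5.32 (normexp log2 difference -1.25). With slide as a fixed term, or without either −LH array or +LH replicate 2, 2 of these genes were called lower.

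The slide could be checked because +LH replicate 1 shared it with the −LH arrays. Over 11576 genes well above background on all 5 arrays, +LH replicate 1 differed from the mean of the other +LH arrays with an SD of 0.193 on the log2 scale, and 40 genes differed by over 2-fold. With slide as a fixed term 8503 of 55681 probes were called, against 11626 without it, and 29 of the 165 named genes that were called lost their call. Among the genes with the largest differences were Cers2, with 12.53 against 9.93 and 9.97, and Nkx2-2, which was also higher on +LH replicate 1, and Pde5a, with 5.42 against 7.53 and 9.15, and Pex10 and Slc49a4, which were lower there, and none of these was called.

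The hormone response was then set beside that of cells with siRNAs against PINC, siPINC1.0/1.6 and siPINC, each with 2 −LH and 3 +LH arrays, by an interaction term over 15 arrays. Both comparisons share the siNEG arrays. The −LH arrays of both knockdowns lay on the slide of the siNEG −LH arrays and their +LH arrays on the other, so their own hormone difference cannot be told apart from slide. The PINC probe was read as a check of the labels. In −LH cells it was at 7.41 and 7.48 with siNEG, at 6.27 and 6.39 with siPINC1.0/1.6 and at 6.39 and 6.16 with siPINC. In +LH cells it was at 5.24, 5.12 and 4.83 with siPINC1.0/1.6 and at 4.76, 4.20 and 4.15 with siPINC, against 4.96, 4.93 and 4.72 with siNEG. In +LH cells both knockdowns overlapped with siNEG, and 2 of 3 siPINC1.0/1.6 arrays lay above all siNEG arrays. The response differed for 1233 genes (6.12%) in siPINC1.0/1.6 and for 175 genes (0.869%) in siPINC cells. In probes these were 1778 and 280, and with 75th percentile scaling they were 1145 and 7. Without siNEG −LH replicate 1 the count of 280 was 646, without siNEG +LH replicate 1 it was 173, and without siNEG +LH replicate 2 it was 105.

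Cell cycle genes had less negative responses in knockdown cells. Their median log2 fold change was -2.52 with siNEG, -1.72 with siPINC1.0/1.6 and -1.94 with siPINC, and the difference was called for 22 of 28 genes and for 9 of 28. With 75th percentile scaling these counts were 18 and 0. Top2a fell by 2.91 with siNEG against 1.96 and 2.25, and Mki67 by 2.29 against 1.38 and 1.63. Interferon-stimulated genes had more positive responses, with medians of 0.72, 2.15 and 1.83 and differences called for 15 of 20 and 10 of 20 genes, the latter being 2 with 75th percentile scaling and 4 without siNEG +LH replicate 2. Isg15 was higher by 0.10 with siNEG and rose by 2.34 with siPINC1.0/1.6 and by 1.97 with siPINC. Of the basal and squamous markers 7 had a more positive response in siPINC1.0/1.6 cells, and 6 innate defence genes, Lcn2 among them, had a more negative response there, 3 without siNEG −LH replicate 2, +LH replicate 2 or +LH replicate 3.

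**Figure D5:**
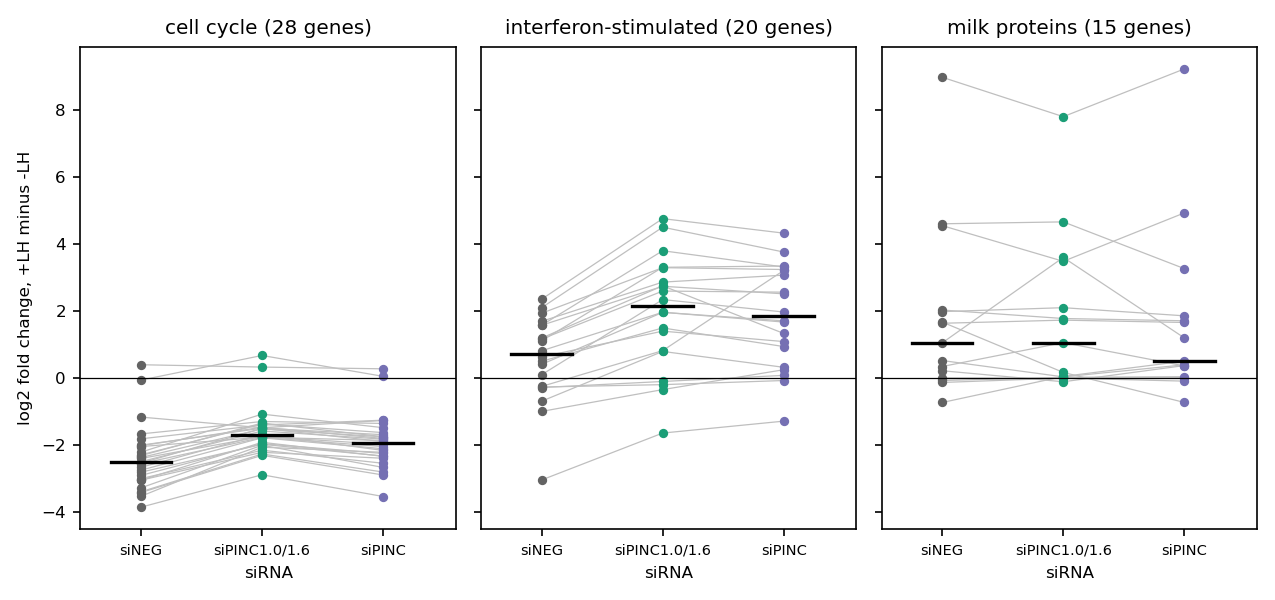
Log2 fold change of +LH over −LH cells (y axis) in siNEG, siPINC1.0/1.6 and siPINC cells (x axis) for the 28 cell cycle, 20 interferon-stimulated and 15 milk protein genes, with a line per gene and a black bar at the median. The medians of the cell cycle genes are -2.52, -1.72 and -1.94 and those of the interferon-stimulated genes 0.72, 2.15 and 1.83, and all 3 groups share the same 28, 20 and 15 probes.

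Of the milk proteins, 1 gene in each knockdown had a response called different. Csn2 reached 9.69, 9.48 and 10.06 in siPINC1.0/1.6 against 10.98, 10.76 and 11.08 in siNEG cells from like −LH values, so its response was smaller by 1.18 on the log2 scale (SE 0.228, adjusted p = 0.0193, and 0.0627 with 75th percentile scaling). In siPINC cells the difference in response of Csn2 was 0.25 and was not called. Pip ended near the same value in all groups, and its smaller response in siPINC cells (by 1.34, adjusted p = 0.000212) went with higher −LH values of 13.24 and 13.15. Edn1 likewise ended at between 8.30 and 8.80 in all +LH arrays, while its −LH values were 3.88 and 3.89 with siNEG, 6.94 and 6.65 with siPINC1.0/1.6 and 5.001 and 5.06 with siPINC. No difference in response was called for any PRC2 or cholesterol gene, or for any tight junction gene other than Cldn8, in either knockdown.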

How the data were processed

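Total RNA from each culture was labelled with Cy3 and read on 1-colour Agilent arrays, 5 of siNEG cells and 10 of 2 PINC knockdowns. Per the file headers, the authors deposited scanner intensities of each spot, background-subtracted by Feature Extraction 11.0.1.1. The authors also deposited a table of quantile normalized log2 values of the same arrays, used as an alternative. The gene symbols came from matching RefSeq accessions of the probes to the GRCm38.p6 gene table, which left 29099 of 55681 probes without a symbol.

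Processed intensities were log2 transformed and quantile normalized over all 24 arrays in R 4.3.3. Control spots and outlier spots were left out, spots of a probe were averaged, dim probes were kept, and a gene was read by its brightest probe over the 5 arrays. Hormone-treated and untreated groups were compared with limma 3.58.1 (lmFit and eBayes), in place of the t-test on log values that the methods name, with Benjamini-Hochberg adjustment. A probe that Feature Extraction found well above background on no array of a group has only a bound there, and the fold is then given against the lowest signal that was well above background. The number of arrays limits the precision. The scripts were tested on simulated data with the measured spread, in which few of 55681 probes were changed. There 32.7% of the changes of 1 on the log2 scale and 46.7% of those of 2 were called. A gene that was not called may therefore still have changed. Summaries were made in Python 3.11.15.

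The members, gene lists and tests were chosen with earlier results of these data known. Genes are named by 5 rules: all members of the milk protein, prolactin, glucocorticoid, PRC2 and followed-up lists with PINC, the 12 largest rises and 12 largest falls that were called, well above background in at least 1 group and without overlap, up to 5 called genes in each other list, the 3 genes each way with the largest slide difference, and the 3 genes each way with the largest difference in response in each knockdown. Some genes that fall under these rules are not reported here. Genes named outside these rules were chosen after their values were seen. No probe was named for some list members, among them Serpina3g, Sprr2a1, Col6a3, Cd68 and Dlk2. Alternatives were 75th percentile scaling, quantile normalization of the 5 arrays alone, normexp background correction (offset 50), bright probes only, the methods' t-test, a trended and robust prior, fits of 15 and 24 arrays, slide as a fixed term or a random block, the replicate number as a block, the authors' log2 values, the mean of all probes of a gene, and leaving out each array.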

Additional observations from a re-analysis of the deposited data

Results flagged for a closer look

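The hormone response of the genes below differed between siNEG cells and at least 1 knockdown by the interaction term of limma over 15 arrays (adjusted p under 0.05). Each value is the log2 fold change with the knockdown minus that with siNEG. In both knockdowns the slide changed with the hormones, so slide and hormones cannot be told apart there.

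Among milk and signalling genes the response in siPINC1.0/1.6 cells differed by -1.18 for Csn2, 0.40 for Stat5a, 0.79 for Socs3 and 0.55 for Ccnd1. In siPINC cells it differed by -1.34 for Pip, 0.61 for Elf5 and 0.46 for Ccnd1. Among glucocorticoid genes in siPINC1.0/1.6 cells it differed by -0.61 for Fkbp5, 0.39 for Mt1, -0.74 for Cebpd, -0.76 for Nfkbia, 1.21 for Angptl4 and 0.98 for Hsd11b1, and in siPINC cells by 0.64 for Hsd11b1. With 75th percentile scaling the differences of Csn2, Stat5a, Socs3, Ccnd1, Fkbp5, Mt1, Elf5 and of Hsd11b1 in siPINC cells were no longer called.

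Of the genes the study followed up, Edn1 differed by -2.88 in siPINC1.0/1.6 and by -0.74 in siPINC cells, and in siPINC1.0/1.6 cells Ly6a differed by 1.00, Chil1 by -1.11, Itgb3 by 1.51 and Ednra by -0.88. The PINC probe differed by 1.30 in siPINC1.0/1.6 cells, where its −LH signals were 6.27 and 6.39 against 7.41 and 7.48 in siNEG cells. Of the largest rises and falls, Ogn differed by -1.09, Dcn by 1.01, Agr3 by -1.39 and 4933402N22Rik by 1.09 in siPINC1.0/1.6 cells, and Cxcl17 by -1.23 in siPINC cells. With 75th percentile scaling the differences of Ednra and 4933402N22Rik, and those of Edn1 and Cxcl17 in siPINC cells, were no longer called.

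Several differences lay mainly in the −LH levels. Krt15, a basal keratin, differed by 3.11 in siPINC1.0/1.6 cells. Its −LH signals were 12.48 and 12.65 with siNEG and 9.28 and 9.32 with siPINC1.0/1.6, while all +LH arrays lay between 15.13 and 15.69. C1s2 (-3.60), a complement protease, was likewise at 4.81 and 4.95 in siPINC1.0/1.6 and at 1.88 and 1.87 in siNEG cells without hormones. Il1a (-4.22), an inflammatory cytokine, was at 6.00 and 5.203 in −LH siPINC1.0/1.6 arrays and at 1.89 and 1.83 with siNEG, where 1 +LH array read 3.23. Csf3 (-3.26), a growth factor of neutrophils, was at 7.60 and 7.20 against 3.98 and 3.63, and Krt71 differed by 3.63 with −LH signals of 5.64 and 5.86 with siNEG and of 3.18 and 2.77 with siPINC1.0/1.6, and with +LH siNEG signals spread from 1.90 to 4.09. Il1a, Csf3 and C1s2 were well above background on no −LH siNEG array, so their fitted differences have no exact size.

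Interferon-stimulated genes differed in both knockdowns: Usp18 by 2.40 in siPINC1.0/1.6 and 1.97 in siPINC cells, Ifit1 by 2.19 and 2.23 and Oas2 by 2.91 and 1.99, with Ifi27l2a differing by 3.62 in siPINC1.0/1.6 cells. For Ifit1 the −LH signals were 7.67 and 7.61 with siNEG and 6.08 to 6.75 in the knockdowns, and the +LH signals 8.62 to 8.91 against 9.35 to 10.19. Afp, for alpha-fetoprotein, differed by -2.22 and -2.24 and was well above background on no siNEG array. Map7d2 differed by -1.73 and -1.94, and Wif1, a secreted inhibitor of Wnt proteins, by -1.56 in siPINC cells. With 75th percentile scaling Ifit1 and Map7d2 were still called in siPINC cells, and Usp18, Oas2, Afp and Wif1 were not.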

How the results depend on the processing

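Of 195 genes named above, 165 were called changed. Of these, 164 kept their direction under every alternative; Mt1 went from 0.44 to -0.06 with 75th percentile scaling. The number called under every alternative other than the replicate block was 121. The probes called, 11626 at first, ranged from 8038 to 15475 in the other fits with all 5 arrays and no replicate block, and leaving out 1 array gave 7472 (without +LH replicate 2) to 9597 (without +LH replicate 1). The count with at least a 2-fold difference was 4812 and became 2618 with normexp background correction; leaving out 1 array gave 4079 to 4937. With the replicate number as a block, 0 probes, 0 with at least a 2-fold difference and 0 list members were called, while 13887 probes had an unadjusted p under 0.05. The fit with this block leaves few residual degrees of freedom on 5 arrays, which limits what its 0 calls can mean. Only 2 numbers were shared by both groups, and deviations of same-numbered arrays correlated at -0.011 and -0.131. With 2 −LH arrays, whose deviations mirror each other, these correlations cannot decide whether cultures were paired. The labels do not say so either, and the numbers were taken as names only. The differences in response went from 1778 to 1145 probes for siPINC1.0/1.6 and from 280 to 7 for siPINC cells with 75th percentile scaling. For siPINC they were 173 with slide as a fixed term, 29 with the replicate block and 105 to 646 without 1 siNEG array. Leaving out 1 siNEG array gave 1407 to 1925 for siPINC1.0/1.6. With percentile scaling the median over all probes was 0.185 against 0.012. The causes of these shifts were not tested. Among called genes well above background on every array of 1 group, signals near background gave only bounds for 121 in −LH and 127 in +LH cells. Called genes well above background on fewer arrays come in addition.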

Other observations

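The gene families below were chosen after their values were seen, so their counts are descriptions. Of 29 chemokine genes, 6 were called higher and 4 lower, beside 16.8% higher and 15.6% lower of all genes, so the counts are near those of all genes. Ccl9 rose from 7.11 and 7.03 in −LH to 12.43, 12.33 and 12.48 in +LH arrays, and Ccl6 from 3.66 and 4.77 to 10.30, 10.16 and 10.35, with 1 of 2 −LH arrays well above background. Ccl28, a chemokine of mucosal glands, was at least 2.20-fold higher. The other genes called higher were Cxcl17, Cxcl16 (0.61) and Cx3cl1 (0.50), and those called lower were Cxcl5, Cxcl1, Ccl5 (-0.69) and Cxcl12 (-0.56). Of 19 Wnt ligand genes, 1 was called higher and 5 lower, so the share called was also near that of all genes. Wnt5b rose by 2.04 on the log2 scale, from 8.40 and 8.28 to 10.42, 10.39 and 10.33. Wnt10a fell by 1.55, from 10.23 and 10.31 to 8.72, 8.70 and 8.73, Wnt7b fell by 1.15 and Wnt9a by 1.01, and the groups of each of these genes did not overlap. Wnt6, called lower as well as Wnt4, was well above background on no array.

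Of 17 small leucine-rich proteoglycans, the family of Ogn, Omd and Dcn, 6 were called higher and 0 lower, beside 16.8% higher and 15.6% lower of all genes. At an unadjusted p under 0.05 7 were higher and 0 lower. Besides those named above, Chadl rose by 1.13, from 8.66 and 8.63 to 9.73, 9.74 and 9.86, and Nyx was called higher but was well above background on no array. Bgn (biglycan) had a difference of -1.08 that was not called. Of 10 granzyme genes, 3 (Gzmc, Gzme and Gzmg) were called lower and 0 higher, beside the same shares of all genes. At an unadjusted p under 0.05 4 were lower and 0 higher. Gzmg was well above background on no array.

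Next to the casein genes on chromosome 5, the sulfotransferase genes Sult1d1 and Sult1e1 were called higher by 2.15 and 2.07, and each was well above background on 1 of the 5 arrays. Both lie on the side of Csn1s1, and Sult1b1, which follows them, had a difference of -0.01 and was well above background on no array.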
